A study of Mus musculus with 2 samples.

Results

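The 9 genes described here, Ucp1, Cidea, Cox8b, Cox7a1, Elovl3, Fabp3, Ppargc1a, Prdm16 and Dio2, belong to the thermogenic programme of brown fat, and they were followed in long-read RNA-seq of the mouse adrenal gland. They were taken by name from both deposited tables of transcript read counts. Of the 9 genes, 8 had reads, among 15683 annotated genes with reads in either library, and the same number of the 9 had reads in each library taken alone. The summed level of the 9 genes was 2480 CPM (counts-per-million of endogenous reads) in replicate 1, against 5436 CPM in replicate 2, or 3958 ± 2090 CPM (SD, n = 2). Long reads count 1 read per cDNA molecule, so levels of different genes were compared as CPM without division by length.

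Both libraries came from the adrenal glands of male B6CASTF1/J mice at 36 days of age, F1 hybrids of C57BL/6J with the wild-derived CAST/EiJ strain. They form a single group with no treatment, no altered genotype and no control group. The labels number the libraries as biological replicates 1 and 2 but differ on whether the animals were distinct, so the spread between them may be technical. The study thus implies a level and its spread for each gene rather than a contrast, and a test between the libraries compares these 2 libraries and not conditions.

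Brown fat cells burn fatty acids to make heat. Their inner mitochondrial membrane carries the uncoupling protein UCP1, which lets protons return to the matrix without making ATP, and noradrenaline acting through the beta-3 adrenergic receptor switches the process on. The fat around the rodent adrenal gland and kidney contains brown fat cells.

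Replicate 1 held 452489 endogenous reads and replicate 2 held 463210, beside 5512 and 15792 spike-in reads, so 1 read was worth 2.21 and 2.16 CPM. The labelled tissue was present in both libraries: all 12 adrenal cortex and medulla markers had reads, and together they made up 76406 and 68904 CPM, led by Cyp11a1, Cyp21a1, Star and Hsd3b1. The libraries stood apart in 2 other sets of markers. The 12 markers of pancreatic acinar cells (Clps, Try4, Cela2a, Ctrb1, Cela1, Prss2, Amy2a5, Cela3b, Cel, Cpa1, Pnlip and Cpb1) summed to 79.6 CPM in replicate 1, where Cela1 and Cpb1 alone had reads, against 7871 CPM in replicate 2, and all 12 were called by Fisher's exact test at 2-fold or more. The 8 liver markers had 3 reads in replicate 1 and 270 in replicate 2, and the 7 that could be tested (Apoa1, Apoa2, Alb, Mup3, Ttr, Serpina1c and Fabp1) were all called. Skeletal muscle markers were at or near 0 in both libraries, with reads for 4 of 15 genes and 6.63 and 4.32 CPM in all, and heart muscle markers had 1 read in each library. Where a cell type differs between libraries of bulk tissue, fewer cells and less RNA per cell cannot be told apart.

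**Figure D1:**
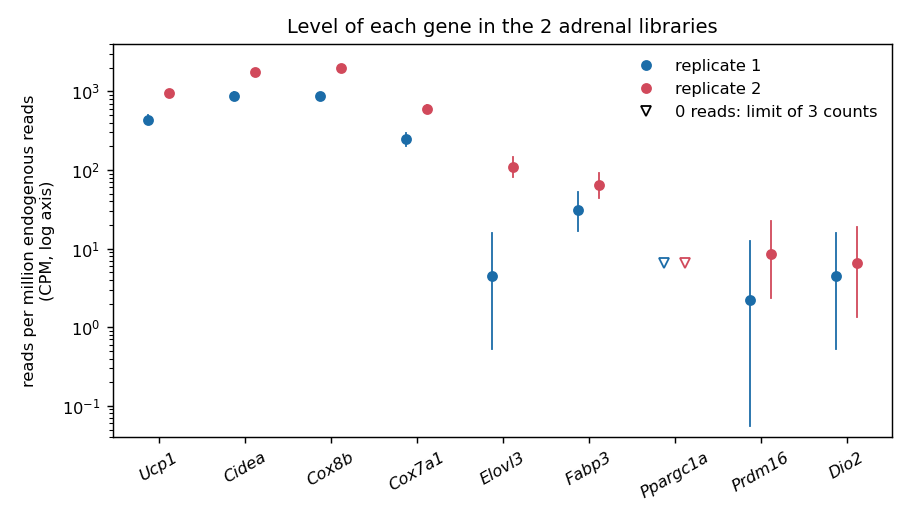
Level of each gene in CPM (log axis) in the 2 adrenal libraries. Points are the libraries, vertical lines are exact 95% Poisson intervals that cover counting error only, and open triangles mark the limit of 3 counts for a gene with 0 reads. Cox8b, Cidea, Ucp1 and Cox7a1 lie between 248 and 1960 CPM with replicate 2 above replicate 1, and Ppargc1a has no reads.

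The genes spanned a wide range of abundance. Cox8b and Cidea were the highest, at ranks 60 and 72 of 15683 genes by the mean of both libraries, and their order differed between the libraries: Cidea was marginally above Cox8b in replicate 1 (884 and 869 CPM) and below it in replicate 2 (1749 and 1960 CPM). Ucp1 followed at rank 179 and Cox7a1 at rank 370. Elovl3 and Fabp3 lay at ranks 3122 and 3605, and Dio2 and Prdm16 at ranks 10008 and 10195 with at most 4 reads per library. The order within both of these pairs also differed between the libraries: Elovl3 was below Fabp3 in replicate 1 and above it in replicate 2, and Dio2 was above Prdm16 in replicate 1 and below it in replicate 2. Among neighbours in this order, Cox8b and Cidea, Ucp1 and Cox7a1, Elovl3 and Fabp3, and Dio2 and Prdm16 did not differ beyond the SD of the 2 libraries. Ucp1 was nevertheless below Cidea and above Cox7a1 in each library, as the plot of levels by library shows.

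Ucp1 encodes the uncoupling protein itself, the defining effector of brown fat. The gene lies on chromosome 8 at 83290352 to 83298452 (mm10, plus strand) and has 1 annotated transcript of 6 exons. Its level was 438 CPM (198 reads) in replicate 1 and 943 CPM (437 reads) in replicate 2, or 690 ± 358 CPM (SD, n = 2). The Poisson intervals of the libraries did not overlap, at 379 to 503 CPM and 857 to 1036 CPM. The ratio of replicate 2 to replicate 1 was 2.16 (exact 95% interval 1.82 to 2.56), a log2 ratio of 1.11 with 1 CPM added, and Fisher's exact test gave a Benjamini-Hochberg adjusted p of 2.434e-18 over all genes tested.

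The promoter of Ucp1 is shown because Ucp1 is the gene that defines the programme. RefSeq's promoter table (GRCm38.p6) held 7 of the 9 genes. In the 100 bases before the RefSeq start (chr8:83290248-83290347, plus strand) both strands were searched for the TATA box as TATAAA or as TATATA, for the nuclear receptor half-site AGGTCA, for the CCAAT box, and for TGACG, the core of the cAMP response element. This found TATATA 28 bases and AGGTCA 14 bases before the start, with no overlap between them (capitals).
Ucp1 promoter: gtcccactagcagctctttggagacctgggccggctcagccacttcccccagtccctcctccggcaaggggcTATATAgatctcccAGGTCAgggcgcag
Of all 32851 promoter windows of this length, 2.19% held TATATA, 5.88% held AGGTCA, 18.9% held CCAAT and 10.5% held TGACG. Either form of the TATA box was in 7.03% of them. Among the 7 matched genes, Dio2 held TATAAA 30 bases before its start. Its TGACG matches at 95 and 92 bases lie on opposite strands and overlap in the stretch TGACGTCA. Ppargc1a held TGACG at 49 bases, and CCAAT lay 74 bases before the start of Cox7a1 and 98 bases before that of Prdm16. None of the searched letters was found in the windows of Cox8b and Fabp3. The RefSeq starts are not always the annotated starts used elsewhere here. The Fabp3 window (chr4:130308638-130308737) lies inside exon 1 of Fabp3-201 (130308595 to 130308850). The Cox7a1 window (chr7:30184071-30184170) runs into exon 1, which begins at 30184144. The Dio2 window (chr12:90739039-90739138, minus strand) lies well upstream of the annotated start at 90738438.

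Cidea encodes a lipid droplet protein that is abundant in brown fat cells and promotes the fusion and growth of droplets. It lies on chromosome 18 at 67343604 to 67367785 (plus strand) with 1 annotated transcript of 5 exons. Its level was 884 CPM (400 reads) in replicate 1 and 1749 CPM (810 reads) in replicate 2, or 1316 ± 611 CPM (SD, n = 2). Replicate 2 was 1.98 times replicate 1 (exact 95% interval 1.75 to 2.24). The adjusted p by Fisher's exact test was 2.637e-28, but the log2 ratio of 0.98 lay just under the 2-fold minimum for a call. Its log2 ratio passed that minimum when the libraries were scaled otherwise, at 1.05 with TMM and 1.02 with DESeq2 size factors.

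Elovl3 encodes an elongase of very long chain fatty acids that brown fat induces in the cold. It lies on chromosome 19 at 46131897 to 46135694 (plus strand). It had 2 reads (4.42 CPM) in replicate 1 and 51 reads (110 CPM) in replicate 2, or 57.3 ± 74.7 CPM (SD, n = 2). No other of the 9 genes differed as much between the libraries: the ratio was 24.9, with an exact 95% interval from 6.55 to 211 because replicate 1 had so few reads, and the adjusted p by Fisher's exact test was 3.136e-11. Fabp3 encodes a fatty acid binding protein of heart, muscle and brown fat that carries fatty acids in the cytosol. It lies on chromosome 4 at 130308595 to 130315463 (plus strand) and had 14 reads (30.9 CPM) and 30 reads (64.8 CPM), or 47.9 ± 23.9 CPM (SD, n = 2). Its ratio of 2.09 (exact 95% interval 1.08 to 4.27) did not pass the test (adjusted p = 0.187, Fisher's exact test). Zcchc17 overlaps Fabp3 on the other strand, and models on that strand had 40 and 29 reads. The sources used here do not say how the counting used strand.

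Cox8b and Cox7a1 encode subunits of cytochrome c oxidase, the last complex of the respiratory chain. Both are the forms made in muscle and brown fat, whereas their paralogues Cox8a and Cox7a2 are made in most tissues. Cox8b lies on chromosome 7 at 140898945 to 140900446 (minus strand, 2 exons), and its level was 869 CPM (393 reads) in replicate 1 and 1960 CPM (908 reads) in replicate 2, or 1414 ± 772 CPM (SD, n = 2). Replicate 2 was 2.26 times replicate 1 (exact 95% interval 2.00 to 2.55, adjusted p = 2.371e-42 by Fisher's exact test). Cox7a1 lies on chromosome 7 at 30184144 to 30186078 (plus strand, 2 annotated transcripts), and its level was 248 CPM (112 reads) and 594 CPM (275 reads), or 421 ± 245 CPM (SD, n = 2). Its ratio was 2.40 (exact 95% interval 1.92 to 3.02, adjusted p = 4.055e-14 by Fisher's exact test). For both genes the Poisson intervals of the 2 libraries did not overlap. Beside them, the 15 skeletal muscle markers summed to 6.63 and 4.32 CPM.

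The coding sequences of each pair, read from GENCODE M21 transcripts (GRCm38) without the stop codon, are printed to show how far reads of the paralogues can be told apart. Capitals mark the longest run that the pair shares.
Cox8b coding: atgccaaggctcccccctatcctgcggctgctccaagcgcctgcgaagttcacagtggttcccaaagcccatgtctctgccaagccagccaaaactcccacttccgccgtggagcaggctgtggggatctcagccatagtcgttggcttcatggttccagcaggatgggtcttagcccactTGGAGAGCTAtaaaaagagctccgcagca
Cox8a coding: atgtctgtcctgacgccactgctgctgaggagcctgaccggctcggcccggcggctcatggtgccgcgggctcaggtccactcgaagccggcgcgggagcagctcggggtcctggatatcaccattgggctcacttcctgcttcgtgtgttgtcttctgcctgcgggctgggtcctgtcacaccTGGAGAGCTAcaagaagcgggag
Cox7a1 coding: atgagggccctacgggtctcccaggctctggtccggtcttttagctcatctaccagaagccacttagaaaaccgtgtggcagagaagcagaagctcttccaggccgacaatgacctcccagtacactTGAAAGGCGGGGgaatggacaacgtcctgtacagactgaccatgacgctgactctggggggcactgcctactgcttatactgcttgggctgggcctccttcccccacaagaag
Cox7a2 coding: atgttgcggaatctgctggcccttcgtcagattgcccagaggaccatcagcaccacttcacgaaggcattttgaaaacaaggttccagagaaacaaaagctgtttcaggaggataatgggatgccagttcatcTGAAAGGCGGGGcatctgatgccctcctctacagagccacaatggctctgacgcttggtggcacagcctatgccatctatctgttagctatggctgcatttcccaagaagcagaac
Cox8b and Cox8a (210 and 207 bases, the latter at chr19:7215392-7217512, minus strand) were identical at 53.0% of aligned columns and shared no run over 10 bases. Cox7a1 and Cox7a2 (240 and 249 bases, the latter at chr9:79755550-79759657, minus strand) were identical at 61.6% and shared no run over 12 bases. The longest shared runs were no longer over the whole annotated transcripts.

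The regulators of the programme were hardly read. Ppargc1a, the transcriptional coactivator PGC-1alpha that drives mitochondrial biogenesis, had 0 reads in both libraries (chromosome 5, 51454250 to 51567726, minus strand), and 0 reads allow up to 3 counts, or 6.63 and 6.48 CPM. Prdm16, a zinc finger coregulator of brown fat identity on chromosome 4 at 154316125 to 154636873 (minus strand), had 1 and 4 reads (2.21 and 8.64 CPM). None of its reads in replicate 1 was full-length, and in replicate 2 a single read was in a class counted as full-length. The model of that read has 7 exons and only annotated introns. It starts 302021 bases after the annotated gene start and ends 2356 bases before the annotated end, so it covers only the 3′ part of the gene. Dio2, the deiodinase that activates thyroid hormone inside brown fat cells, had 2 and 3 reads (4.42 and 6.48 CPM) on chromosome 12 at 90724552 to 90738438 (minus strand). Exactly 1 of the Dio2 reads in each library was full-length. A difference between the libraries was not detectable for these 3 genes at this depth.

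Genes with at least 10 reads summed were tested between the libraries, and a call needed both 2-fold or more and an adjusted p under 0.05. Of 8135 such genes, 257 were called (3.16%). Of these, 118 (1.45%) were higher in replicate 2 and 139 (1.71%) in replicate 1. Of the 9 thermogenic genes, 6 were tested, and all 6 were higher in replicate 2, as were 44.8% of all genes tested. Elovl3 reached 10 reads through replicate 2 alone, and Ppargc1a, Prdm16 and Dio2 had too few reads for the test. The called members were Ucp1, Cox8b, Cox7a1 and Elovl3, 4 of 6, and none was called higher in replicate 1. At an adjusted p under 0.05 without a minimum fold, 5 of the 6 passed with Cidea added, against 6.45% of all genes tested. The median log2 ratio of the 6 was 1.14, from 0.98 in Cidea to 4.36 in Elovl3, beside -0.03 over all genes tested. Apart from Elovl3, the log2 ratios lay between 0.98 and 1.26.

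**Figure D2:**
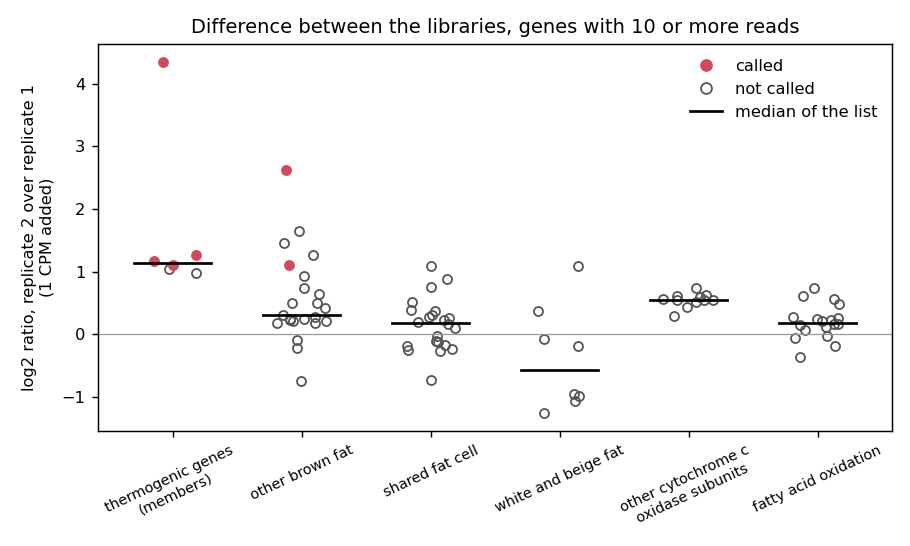
Log2 ratio of replicate 2 to replicate 1 (1 CPM added) for the genes of 6 lists that had at least 10 reads summed. Each circle is a gene, filled where called, and the bar is the median of the list, which is 1.14 for the thermogenic genes and 0.17 for the shared fat cell genes.

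The genes listed here as shared by fat cells summed to nearly the same level in both libraries. How many of their reads came from fat cells and not from adrenal cells was not tested. The 22 shared fat cell genes, led in reads by Car3, Acly, Cfd and Fabp4, summed to 16082 and 15734 CPM. None of the 22 was called, and their median log2 ratio was 0.17, with 13 higher in replicate 2 and 9 lower. Without a minimum fold 5 of the 22 had an adjusted p under 0.05 by Fisher's exact test, 3 of them higher in replicate 2, among them the fatty acid synthase gene Fasn (648 and 1192 CPM, a ratio of 1.84). Car3, a carbonic anhydrase of fat and muscle, had 3677 and 2200 CPM, and Fabp4, the fat cell fatty acid binding protein, had 1054 and 1772 CPM. Acly had 2223 and 1837 CPM. The near-equal sum thus holds opposite changes, with its 2 most read genes, Car3 and Acly, lower in replicate 2. Relative to 100 reads of the shared fat cell genes (7277 and 7288 reads), Ucp1 had 2.72 and 6.0 reads, Cidea 5.50 and 11.1, Cox8b 5.40 and 12.5, and Cox7a1 1.54 and 3.77. Per read of Adipoq, the adiponectin gene, Ucp1 had 1.17 reads in replicate 1 and 2.35 in replicate 2, and per read of Plin1, the perilipin gene, it had 1.31 and 2.17. Cidea had 2.37 and 4.35 reads per read of Adipoq and 2.65 and 4.03 per read of Plin1. These increases depend on the marker chosen. Adipoq and Plin1 had ratios of 1.08 and 1.30 between the libraries. Against Fabp4, with a ratio of 1.68, the increases would be smaller, and against Car3, with a ratio of 0.598, larger. Scaling the libraries by the shared fat cell reads, a setting chosen after seeing the data, called 5 of the 6 tested members, all higher in replicate 2. Under the same scaling 1.48% of all genes were called in that direction and 3.11% in either direction. It stayed close to scaling by library totals: the log2 ratio of Ucp1 was 1.14 in place of 1.11.

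Other genes known for brown fat had a smaller median ratio. Of 40 such genes, 34 had reads and 23 were tested, of which 20 were higher in replicate 2 and 3 lower, with a median log2 ratio of 0.30. The 2 called genes were Gk, the glycerol kinase that lets fat cells reuse glycerol, with 2 and 15 reads, so tested through replicate 2 alone (adjusted p = 0.0388, Fisher's exact test), and Clstn3, which has a form made in fat cells, with 31 and 69 reads (adjusted p = 0.006904). The list's summed level was 4453 and 4376 CPM, and its most read genes were the transcription factor Cebpb (2044 and 1220 CPM), the thiolase Acaa2 (579 and 678 CPM), the fatty acid transporter Slc27a1 (283 and 343 CPM) and the kinase Pdk4 (259 and 307 CPM). The near-equal sum of this list also holds opposite changes. Cebpb was lower in replicate 2, while 20 of the 23 tested genes were higher. Adrb3, the beta-3 adrenergic receptor through which noradrenaline acts on fat, was read 42 and 67 times (92.8 and 145 CPM) and was not called (adjusted p = 0.2101, Fisher's exact test). The developmental factors Zic1, Lhx8 and Tbx15 had no read in either library. Of 8 white and beige fat genes tested, 2 were higher and 6 lower in replicate 2 and none was called, with a median log2 ratio of -0.57. Retn, the resistin gene, led that list at 166 and 158 CPM, followed by Nnat, Hoxc8 and Nnmt.

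The remaining cytochrome c oxidase subunits were also higher in replicate 2, with a smaller median ratio. Without Cox8b and Cox7a1, 11 subunits were tested, all 11 were higher in replicate 2, 10 had an adjusted p under 0.05 by Fisher's exact test, and none reached 2-fold. Their median log2 ratio was 0.55, and their summed level was 10535 and 15507 CPM. Cox4i1 was the most read subunit (2774 and 3767 CPM), followed among the non-members by Cox8a (1596 and 2323 CPM), Cox6a1 (1149 and 1919 CPM) and Cox6c (990 and 1535 CPM). The 18 fatty acid oxidation genes, led by Hadhb, Acadm, Etfb and Acadvl, had a median log2 ratio of 0.19, and none was called. The adrenal markers divided by cell type, and 10 of the 12 had an adjusted p under 0.05 by Fisher's exact test. The 6 that were lower in replicate 2 were the cortical genes Cyp11a1, Cyp21a1, Cyp11b1, Star, Hsd3b1 and Nr5a1, of which Nr5a1, the steroidogenic transcription factor, was called (606 and 278 CPM). The medullary genes Chga (3943 and 6012 CPM), Chgb, Th, Dbh and Pnmt (508 and 967 CPM) were all higher in replicate 2 and none was called, while Mc2r, the corticotropin receptor, had 35 and 36 reads.

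Transcript length, the medullary markers and the pancreatic and liver markers moved with the difference between the libraries, and their part in it was not tested. The median log2 ratio was 0.41 over 172 genes of up to 500 bases, which include Cox8b (360 bases) and Cox7a1 (393 bases), and 4.65% of them were called higher in replicate 2. It was 0.27 over the 722 genes above 500 and up to 1000 bases, which include Fabp3 (823 bases) and of which 5.54% were called higher, and 0.05 for 997 genes above 1000 and up to 1500 bases, which include Cidea (1115 bases) and of which 2.31% were. For the 1160 genes above 1500 and up to 2000 bases, which include Ucp1 (1636 bases) and Elovl3 (1881 bases), the median was -0.14 and 1.29% were called higher in replicate 2. Longer genes, none of them a tested member, gave no further steady trend: the median was -0.22 for 2019 genes up to 3000 bases and -0.03 for 2772 genes above that, with 0.396% and 0.505% called higher. Leaving the pancreatic, liver and mitochondrial genome genes out of the library totals gave log2 ratios of 1.12 for Ucp1, 0.997 for Cidea and 1.19 for Cox8b, and the same 4 members were called. This changed only the totals by which every gene is divided. Whether reads of the members came with other tissue was not tested. Fabp1, a fatty acid binding protein of liver and gut, had 0 and 24 reads and was called at least 7.81-fold higher in replicate 2, taking 3 counts as the floor in replicate 1. It was tested through replicate 2 alone.

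Within their families, several members took a larger share of the reads in replicate 2. Cox8b made up 35.2% of Cox8a and Cox8b reads in replicate 1 (Wilson 95% interval 32.5 to 38.1%) and 45.8% in replicate 2 (43.6 to 48.0%), while Cox8c had no read. Cox7a1 made up 24.9% (21.1 to 29.1%) and 34.1% (30.9 to 37.5%) of Cox7a1 and Cox7a2 reads. Cox7a2l, a supercomplex assembly factor related to them, had 44 and 55 reads. For both pairs the intervals of the libraries did not overlap. Cidea outnumbered Cidec, the droplet protein of white and brown fat, in both libraries, with 54.2% (50.6 to 57.8%) and 72.5% (69.8 to 75.1%) of their reads. Among full-length reads the share of Cidea was 50.4% (46.4 to 54.5%) and 66.8% (63.4 to 69.9%), so its excess in replicate 1 was not clear there. Cidec itself had 338 and 307 reads, and Cideb, the liver form, had none.

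**Figure D3:**
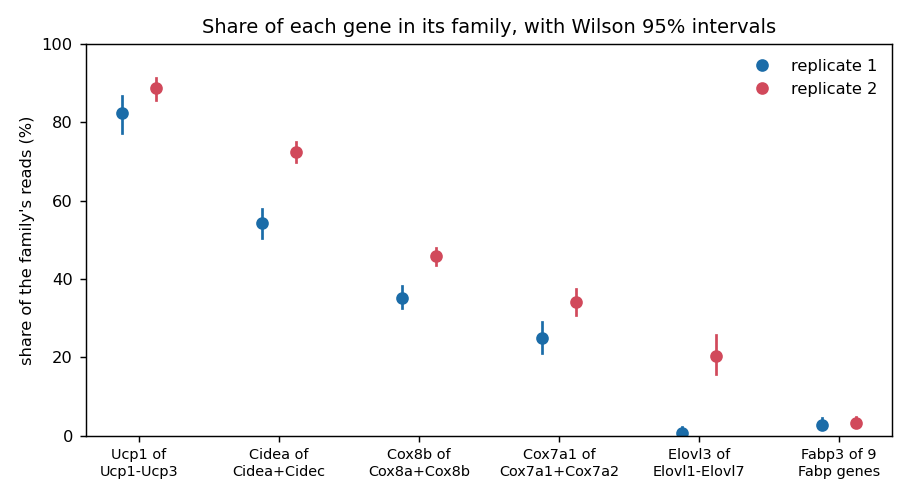
Share of each gene in the reads of its family, in percent, for the 2 libraries. Points are the libraries and vertical lines are Wilson 95% intervals that cover counting error only. Cidea stands at 54.2 and 72.5%, and the intervals of the libraries overlap for Fabp3 and for Ucp1 among Ucp1 to Ucp3.

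Ucp1 accounted for 82.5% (77.2 to 86.8%) and 88.8% (85.7 to 91.3%) of the reads of Ucp1, Ucp2 and Ucp3. Ucp2, which is made in many tissues, had 36 and 45 reads, and Ucp3, the muscle and brown fat form, had 6 and 10. Of all 6 genes of the family, with its 3 related carriers, Ucp1 held 75.3% (69.7 to 80.1%) and 85.4% (82.0 to 88.2%) of reads, and these intervals did not overlap. The carriers Slc25a30, Slc25a14 and Slc25a27 had 14 and 12, 8 and 6, and 1 and 2 reads. Among the elongases, Elovl3 took 0.587% (0.161 to 2.11%) of reads in replicate 1 and 20.3% (15.8 to 25.7%) in replicate 2. The elongase with the most reads, Elovl5, which extends polyunsaturated fatty acids, went the other way with 254 and 130 reads (a ratio of 0.50, exact 95% interval 0.40 to 0.62, adjusted p = 3.055e-09 by Fisher's exact test), just under the 2-fold minimum for a call. Elovl1 had 52 and 45 reads, Elovl6 31 and 23, Elovl4 1 and 2, Elovl2 1 and 0, and Elovl7 none. Fabp3 took 2.72% (1.63 to 4.51%) and 3.30% (2.32 to 4.68%) of the reads of 9 fatty acid binding protein genes, of which Fabp4 held the most, followed by Fabp5 with 22 and 29 reads. Fabp7 had 2 and 1 reads, Fabp9 0 and 2, Fabp12 0 and 1, and Fabp2 and Fabp6 none.

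The families of the regulators were read as rarely as the regulators. Ppargc1b, the relative of Ppargc1a, had 0 and 8 reads, and Pprc1 had 2 and 0. Mecom, the relative of Prdm16, had no read. Dio1 had 0 and 3 reads and Dio3 had 1 in each library, so that the shares within these families could not be compared. Thra, the thyroid hormone receptor with the most reads, had 19 and 14, and Thrb had 0 and 2.

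Reads were assigned by the authors to classes relative to the annotation. Known, NIC (annotated splice sites in a new combination) and NNC (with at least 1 unannotated splice site) were counted as full-length, and ISM (incomplete splice match) and Genomic reads were counted as the rest. The full-length share was 97.5% in replicate 1 and 96.6% in replicate 2 for Cox8b, 97.5 and 92.2% for Ucp1, and 72.8 and 65.4% for Cidea. For Cox7a1, 100 of 112 and 220 of 275 reads were full-length. All 4 shares were lower in replicate 2, as was the median of all genes tested (94.6 and 93.1%). None of the 4 members was called for a change in this share, against 2 of 1510 genes tested (0.132%), while 3 of the 4 had an unadjusted p under 0.05 by Fisher's exact test. The adjusted p was 0.4502 for Cidea and for Ucp1, 0.5177 for Cox7a1 and 1.0 for Cox8b.

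**Figure D4:**
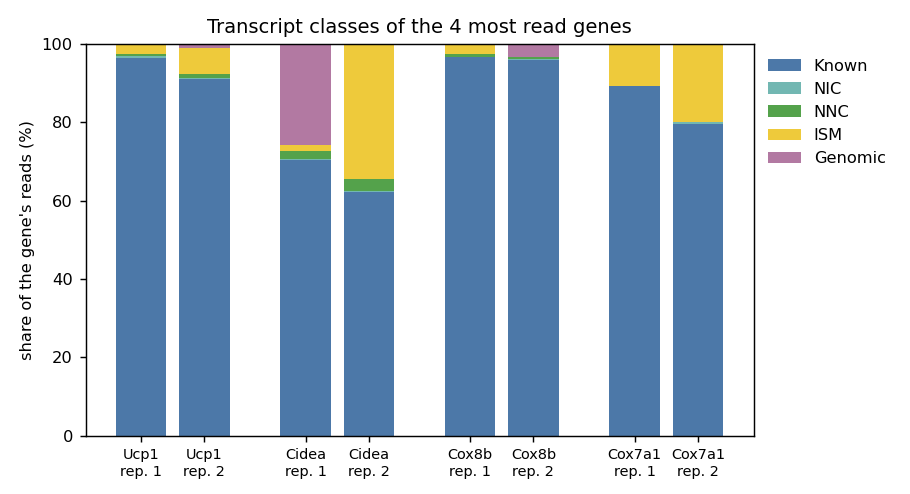
Share of reads in each transcript class, in percent of the gene's reads, for the 4 genes with the most reads in each library. Cidea has the lowest share of full-length reads, 72.8 and 65.4%, and its remaining reads carry the label Genomic in replicate 1 and ISM in replicate 2.

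The reads of Cidea outside the full-length classes lay almost all in its last exon. A single-exon model ending at the annotated 3′ end held 103 reads in replicate 1, labelled Genomic (313 bases), and a similar model held 264 reads in replicate 2, labelled ISM (404 bases). These were 25.8% and 32.6% of Cidea reads, whereas single-exon models held 6.32% and 8.00% of the reads of all genes with a spliced annotated model read. The class label thus differed between the libraries, while both models lay in the last exon and ended at the same base. Cox7a1 had 12 and 51 reads in a single-exon model of its last exon. Cox8b had 26 reads of replicate 2 in a 1288-base model that spans the intron, and 9 reads of replicate 1 in a model of the last exon. The deposited length of a single-exon model is not the length of the reads in it.

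The leading form was the same in both libraries for each of the 4 genes tested. Cox8b-201 held 99.2% of full-length Cox8b reads in each library, Ucp1-201 held 99.0 and 98.8%, Cidea-201 held 96.9 and 95.1%, and Cox7a1-201 held 96.0 and 97.3%. No member was called for a change of leading form, against 3 of 1321 genes tested (0.227%), and none of the 4 had an unadjusted p under 0.05 by Fisher's exact test. Cox7a1-202, which starts and ends further downstream, had 4 and 5 reads. Fabp3-201 held 13 and 29 of the 14 and 30 full-length Fabp3 reads. Of 7 full-length Ucp1 forms in either library, 6 were unannotated, and each of those 6 had at most 1 read in a library.

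Cidea had the most unannotated forms, 10 beside the annotated transcript, of which 4 were seen in both libraries. They held 9 reads in replicate 1 and 26 in replicate 2. The form with the most reads carried an extra exon of 104 bases (chromosome 18, 67351753 to 67351856) in the first intron, with 2 and 8 reads. A second form extended exon 1 by 280 bases and had 0 and 9 reads. Another ended in an alternative last exon of 78 bases (67363646 to 67363723) in the intron before exon 4, 4062 bases short of the annotated end, with 2 and 3 reads. Single unannotated forms were not tested between the libraries.

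**Figure D5:**
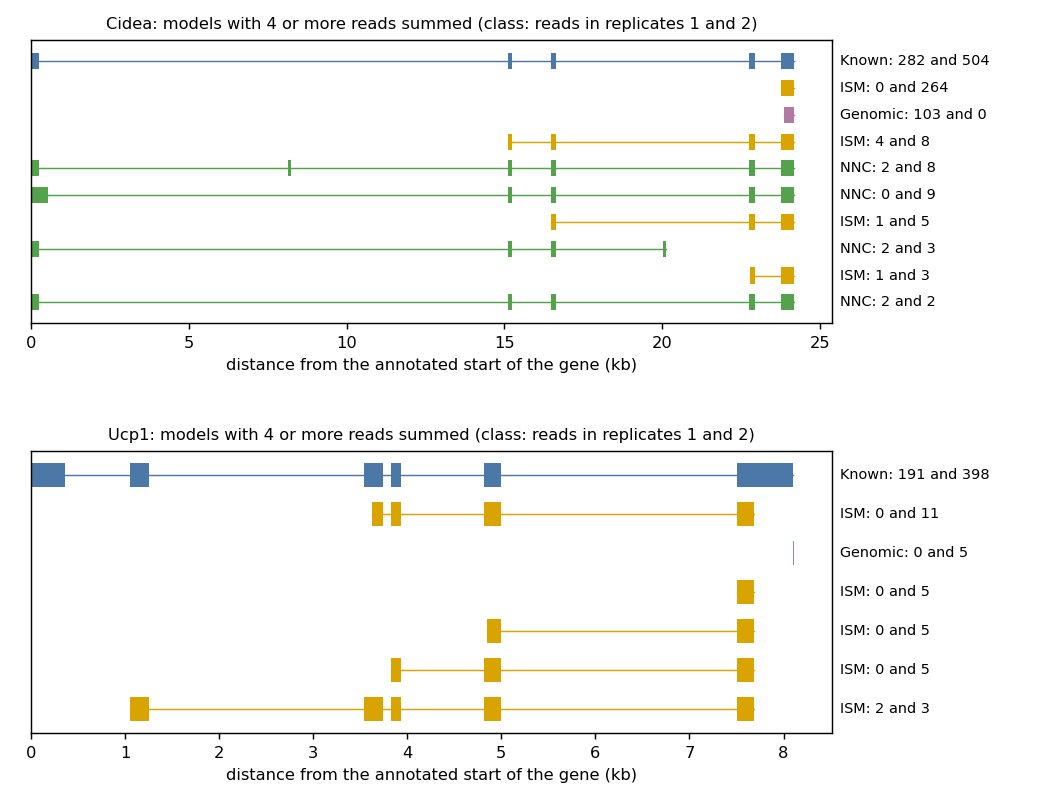
Transcript models of Cidea and Ucp1 with at least 4 reads summed, drawn to scale by distance from the annotated start of the gene in kb. Boxes are exons, lines are introns, colours are classes, and the numbers at the right are the reads in replicates 1 and 2. The annotated transcript holds 282 and 504 reads for Cidea and 191 and 398 for Ucp1, and the spliced partial models of Ucp1 end short of the annotated end.

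Most incomplete or unannotated Ucp1 models ended inside the last exon and not at the annotated end. Among them 11 models ended at 83298040, 412 bases before the annotated end, with 5 and 34 reads, and 3 ended at the annotated 83298452, with 2 and 5 reads, of which all 5 of replicate 2 lay in a model that is 1 base long. The models labelled Known carry the annotated end whatever the reads did, so the 191 and 398 reads of Ucp1-201 say nothing on the end used. The last 30 bases before each end are shown because the ends differ in these models, with the polyadenylation signal AATAAA in capitals (chr8:83298011-83298040 and chr8:83298423-83298452, plus strand). These ends, and those of Elovl3, were chosen after their values were seen.
Ucp1 inner end: tatgctgggagaccacgAATAAAaccaacc
Ucp1 annotated end: taatatactcAATAAAgtattgctaattcc
AATAAA began 13 bases before the inner end and 20 bases before the annotated end. Of 58793 annotated protein-coding transcripts, 35.5% held AATAAA in their last 30 bases.

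Elovl3 had 2 annotated ends, and its 2 annotated transcripts also differ in exon 1 (277 bases in Elovl3-202 and 371 in Elovl3-201). Elovl3-202, the longer transcript, had 2 and 45 reads, and Elovl3-201, which ends at 46135312, had 0 and 1. The ends (chr19:46135283-46135312 and chr19:46135665-46135694, plus strand) are printed with AATAAA in capitals.
Elovl3-201 annotated end: cgcttAATAAAtgtcttttacagactagaa
Elovl3-202 annotated end: caagtctgaatcatcaggcctttgacagtc
AATAAA began 25 bases before the end of Elovl3-201, and it was not found in the last 30 bases of Elovl3-202. As for Ucp1, reads in the annotated transcripts say nothing on the end used. The other Elovl3 models, all from replicate 2, had 4 reads in 3 models ending at 46135312 and 1 read in 1 model ending at 46135694. Of those 4 reads, 2 lay in a model that is 7 bases long.

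Cox8b varied at its only junction. A form whose second exon starts 3 bases further in had 2 reads in each library, and a form that starts 6 bases further in had 1 and 2 reads. Both were chosen for mention after their values were seen. Forms whose first exon ends 3 bases earlier or 4 bases later had 0 and 2 and 0 and 1 reads. A Genomic model that joins this 4-base shift with the 6-base shift had 0 and 4 reads. Genomic models with larger shifts at both sites had 1 and 0 and 0 and 1 reads. The junction of Cox8b-201 is shown with the first 6 bases of exon 2 in capitals (minus strand, chromosome 7).
Cox8b exon junction: acttccgccgtgGAGCAGgctgtggggatc
The first 3 of these bases are GAG and the next 3 are CAG, so that the acceptors shifted by 3 and 6 bases each follow an AG. These 2 acceptor shifts lie in the coding sequence and, taken alone, keep the reading frame.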

How the data were processed

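Long read RNA-seq of 2 mouse adrenal libraries was analysed. The authors deposited whole read counts per transcript model, with TALON classes, on mm10, per the file headers and the labels. No aligner is named here, since none is given in these sources. GENCODE M21 gave annotated positions. Models with 0 reads are not listed.

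Counts were summed over all classes per gene and divided by endogenous reads (spike-ins left out). Each gene with at least 10 reads summed was tested between the libraries by a two-sided Fisher's exact test (SciPy 1.17.1) with Benjamini-Hochberg adjustment over all genes, called at adjusted p under 0.05 and at least 2-fold after adding 1 CPM. Shares of forms and classes used genes with at least 50 reads in each library, called at 10 percentage points. Single libraries have exact Poisson or Wilson 95% intervals, which cover counting error only, and 0 reads allow up to 3 counts. TMM (edgeR 4.0.16) and DESeq2 1.42.0 size factors served only as alternative scalings. The tests were checked on simulated data.

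The text names all 9 thermogenic genes, up to 4 genes with the most reads and each called gene of every other list, all measured family members, and full-length forms with at least 5 reads; an item of these lists is not reported here. The members and lists were chosen with earlier results of these data known.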

Additional observations from a re-analysis of the deposited data

How the results depend on the processing

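The 4 called members, Ucp1, Cox8b, Cox7a1 and Elovl3, stayed called under each of the alternatives run, and Cidea joined them under TMM scaling, DESeq2 size factors and scaling by shared fat cell reads, with log2 ratios of 1.05, 1.02 and 1.015. Fabp3 was not called under any of them (adjusted p from 0.1456 to 0.341, Fisher's exact test). Without a minimum fold, a setting added after seeing the data like the shared fat cell scaling, 525 genes passed in place of 257, and Cidea passed too, as fewer conditions apply. Counting ISM reads alone as the rest called 1 member, Cidea, for a change of full-length share, since its last-exon reads are labelled Genomic in replicate 1. Among full-length reads Fabp3 made up 4.82% of its family in place of 3.01%, and the cause was not tested. With few reads, Prdm16 had 0 CPM among Known reads, and Dio2 had 2.69 CPM among full-length and 2.94 CPM among Known reads. Leaving out 1 library gave a summed level of 2480 to 5436 CPM. No paired analysis was possible because the libraries form a single group. Depth limits Ppargc1a, Prdm16 and Dio2, for which at most 4 reads per library were found.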
